A study of Marchantia polymorpha with 9 samples.

Results

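Transcript levels in whole thalli of the liverwort Marchantia polymorpha were compared between plants labelled KO and plants labelled WT, with 3 RNA-seq libraries each, that is 6 of the 9 libraries of the series. The members were every gene that passed a filter on low counts, 14541 of the 19287 gene IDs in the deposited table. The other 3 libraries, labelled OX, took no part in the scaling, the filter or the test. The plants of both genotypes were male, of the Cambridge strain, and grown from gemmae, small vegetative propagules, at 22 °C with 16 h of light and 8 h of darkness until day 10. The labels give only the letters WT and KO, taken here to stand for wild type and knockout, with no gene, allele or line named, and the row of the targeted gene was not identified, so the loss of its transcript could not be checked. The design text gives 3 biological replicates for each line. With 1 line per genotype, a difference between genotypes and a difference between lines cannot be told apart.

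The series concerns a MYB transcription factor lineage related to MIXTA. In flowering plants, MIXTA-type proteins shape epidermal cells, as in the conical cells of petals, and act on the cuticle, the layer of cutin polyester and waxes that seals the outer wall of the epidermis. The thallus is the flat body of the haploid liverwort plant, and its upper side has an epidermis with air pores above photosynthetic chambers. Setting KO beside WT asks what is altered in the thallus transcriptome of the KO plants. That a MYB gene of this lineage is disrupted in them is assumed from the subject of the series, since the labels name no gene. Whole thalli hold many cell types, and fewer cells of a type and less RNA per cell cannot be told apart in such samples.

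The IDs belong to version 3.1 of the gene models, and the files do not pair them with names. None of them matched the name table used here (0 IDs). Gene functions, coordinates and sequences are therefore not given, and neither the tissue label nor the genes of cuticle synthesis could be checked by named markers. The male label could be set beside the IDs that carry a Y-chromosome prefix. Of 113 such IDs, 34 had enough counts to pass the filter, and 33 of these had reads in all 6 libraries. Of the 79 that did not pass, 48 had no read in any of the 6 libraries, 26 had reads in at least 1 WT library and 18 in at least 1 KO library.

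The libraries of the 2 genotypes were similar in depth and composition. They held 22401499 to 28841892 read pairs, and the shallowest was WT replicate 2. The genes tested took 99.98% of the counts in each library, and the 10 most abundant genes took 6.94% to 7.43%. Across the genes tested, log2 levels correlated at 0.994 to 0.996 among the WT libraries, at 0.995 to 0.997 among the KO libraries and at 0.986 to 0.990 between genotypes. These correlations are across genes, which are not independent replicates.

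In a principal component analysis, the first axis held 63.1% of the variance and placed WT libraries between -23.5 and -16.7 and KO libraries between 18.8 and 22.1. A further 17.0% of the variance lay on the second component, which spread the libraries within each genotype, with scores of -13.8, 2.07 and 14.8 in WT replicates 1 to 3 and -13.2, -0.694 and 10.8 in KO replicates 1 to 3. The spread within a genotype was of similar size on both sides. The biological coefficient of variation, meant to measure the relative spread between libraries beyond counting error, was 10.4% in WT and 8.77% in KO. It was estimated on the deposited counts, in which 1 read pair appears to count as 2, so it still holds some counting error.

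**Figure D1:**
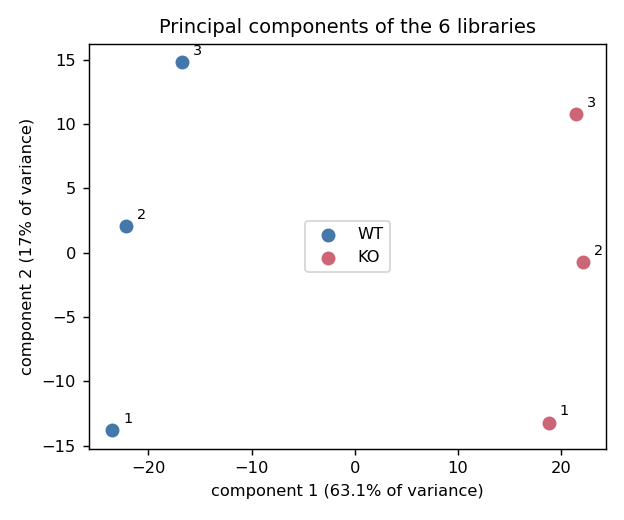
Scores of the 3 WT and 3 KO libraries on the first and second principal components of log2 CPM over the 14541 genes tested, with replicate numbers beside the points. The genotypes lie apart on the first component, WT between -23.5 and -16.7 and KO between 18.8 and 22.1, and the libraries of each genotype are spread along the second.

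Between KO and WT, 1726 genes (11.9% of those tested) changed at an adjusted p of at most 0.05 in edgeR's quasi-likelihood test with Benjamini-Hochberg adjustment. Of these, 783 (5.38%) were higher and 943 (6.49%) lower in KO. Levels are given as CPM, counts relative to library size, adjusted by TMM factors. The libraries of the genotypes did not overlap in 4579 genes (31.5%), and 1725 of the 1726 changed genes were among these. The number of changed genes rested on which libraries were present. It was 871 without KO replicate 2 and 980 without WT replicate 2, and 863 and 965 of those genes, respectively, were among the 1726. Of the 1726 genes, 799 (46.3%) passed the threshold in all 6 fits that left out a library.

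Most changes were small. The median change among the changed genes was 1.45-fold, and 1284 (74.4%) changed by less than 2-fold. At 2-fold or more, 442 genes changed (3.04% of those tested), 193 of them higher (1.33%) and 249 lower (1.71%). Changes of 4-fold or more were seen in 74 genes that rose and 77 that fell, and those of 16-fold or more in 21 and 17. Larger changes also held more often when a library was left out. The share that passed in all 6 fits was 69.2% at 2-fold or more, 78.1% at 4-fold or more and 97.4% at 16-fold or more.

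**Figure D2:**
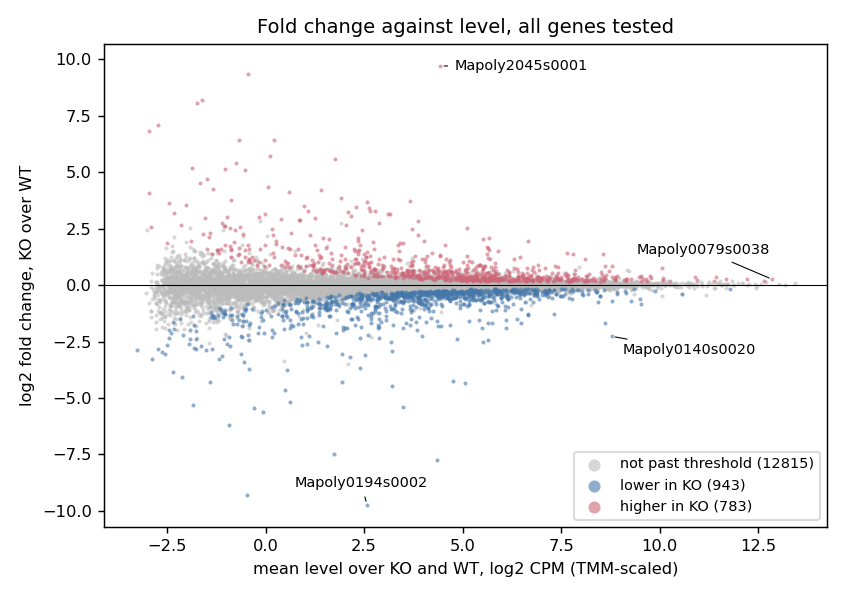
Log2 fold change of KO over WT against the mean level in log2 CPM for the 14541 genes tested, 1 point per gene, with 783 higher genes in red, 943 lower genes in blue and the other 12815 in grey. Changes of 2-fold or more lie mostly at low levels. The fitted fold changes of genes with hardly any reads in one genotype depend on a prior count that edgeR adds.

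The changes ran through the whole range of transcript levels, but their size and their balance differed with level. Among 5 classes of equal size by mean level, the share of changed genes was 8.66% in the lowest class (0.105 to 2.23 CPM), 15.1% in the next and 12.6%, 11.9% and 11.2% in the classes above. In the lowest class, 148 genes fell and 104 rose. In the second class, 267 fell and 172 rose, and in the third 229 fell and 136 rose. In the fourth class, 169 fell and 176 rose. In the most abundant class, from 69.7 CPM upward, 130 fell and 195 rose. This excess of rises among abundant genes depended on the scaling. With library size alone 173 fell and 157 rose there, while falls outnumbered rises in the 3 lower classes under every scaling tried.

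The median change of a changed gene was 3.08-fold in the lowest class and 1.23-fold in the highest. The smallest change that passed was 1.49-fold in the lowest class and 1.11-fold in the highest. The median standard error of the log2 fold change was 0.32 and 0.051 in these classes, which had medians of 16.8 and 3540 pairs per gene and library.

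**Figure D3:**
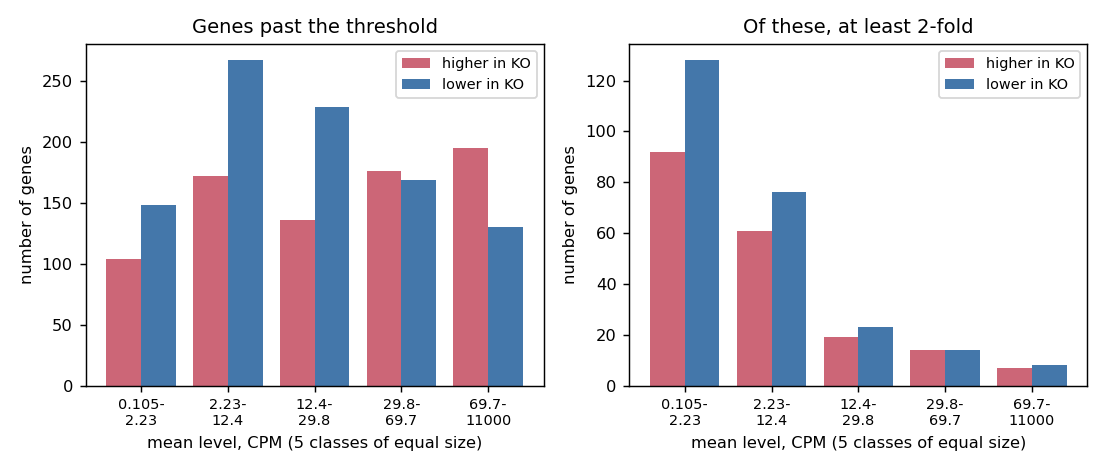
Number of genes higher (red) and lower (blue) in KO in 5 classes of equal size by mean level in CPM, for all changed genes on the left and for those changed at least 2-fold on the right. Falls outnumber rises in the 3 lower classes on the left, as with 267 against 172 in the second, and changes of at least 2-fold lie mostly in the 2 lowest classes.

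Among the 100 most abundant genes, which took 26.2% of all counts, 12 rose and 2 fell, a share of changed genes near the 11.9% of all genes tested. With library size alone 12 rose and 5 fell. All 14 changed by less than 2-fold, where 3.04% of all genes tested changed by 2-fold or more. The largest rise among the 14 was 1.71-fold. The largest fall left the KO level at 0.769 of the WT level.

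The 783 genes that rose took 7.63%, 7.75% and 7.97% of the counts in WT replicates 1 to 3 and 9.64%, 9.72% and 9.66% in KO. The 943 genes that fell took 5.03%, 5.01% and 4.94% in WT and 3.57%, 3.51% and 3.56% in KO. The genes were chosen by this difference, so the sums describe how much of the RNA the changes involved and test nothing. The changes of at least 2-fold involved little of it. The 249 that fell went from 0.482% ± 0.0013 of the counts in WT to 0.147% ± 0.0029 in KO (SD, n = 3 libraries each). The 193 that rose went from 0.145% ± 0.013 to 0.398% ± 0.016.

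A set of 4 genes is described by ID, the largest rise and fall in fold and the largest rise and fall in CPM. They were taken from changed genes whose mean reached 5 CPM in KO or in WT and whose libraries did not overlap. These conditions were met by 635 of the genes that rose and 736 of those that fell. Mapoly2045s0001 had the largest rise in fold and was nearly absent from wild type. It had 1301, 1210 and 1185 read pairs in KO replicates 1 to 3, against 4, 0 and 0 in WT. Its level was 43.2 ± 2.03 CPM in KO and 0.0463 ± 0.0803 CPM in WT (SD, n = 3 libraries each). All its WT reads came from replicate 1. The ratio of the summed pairs, scaled for depth, was 870.2, with a 95% exact binomial interval of 339.6 to 3195 that covers counting error only. The fitted log2 fold change was 9.70, with an adjusted p of 1.59e-06 in edgeR's test. It was 14.2 without WT replicate 1, where no WT read was left. This gene is the only ID on its scaffold.

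Mapoly0079s0038 had the largest rise in CPM and was the 4th most abundant gene of all those tested. Its level was 6848, 6658 and 6878 CPM in WT and 8236, 8004 and 7964 CPM in KO. The 3 KO libraries all lay above the 3 WT libraries, which was a condition of its choice. The rise of 1274 CPM was 1.19-fold, a log2 fold change of 0.25 ± 0.035 (SE, edgeR's adjusted p = 0.00311).

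Mapoly0194s0002 had the largest fall in fold, and its reads were lost from KO almost entirely. It had 322, 280 and 349 pairs in WT and 0, 0 and 1 in KO. Its level in WT was 11.9 ± 0.651 CPM (SD, n = 3 libraries). The summed pairs, scaled for depth, were 1009.8 times higher in WT, with a 95% exact binomial interval of 180.8 to 39928 (edgeR's adjusted p = 1.59e-06). The fitted log2 fold change was -9.73. It was -12.4 without KO replicate 3, which held the only KO pair.

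Mapoly0140s0020 had the largest fall in CPM, and here the transcript remained in KO above the 69.7 CPM where the most abundant class begins. It had 741.2, 705.9 and 738.6 CPM in WT and 138.1, 157.5 and 158.1 CPM in KO. The genotypes were far apart against the spread within each. The log2 fold change was -2.27 ± 0.063 (SE), a level 4.82 times higher in WT (edgeR's adjusted p = 6.66e-07).

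**Figure D4:**
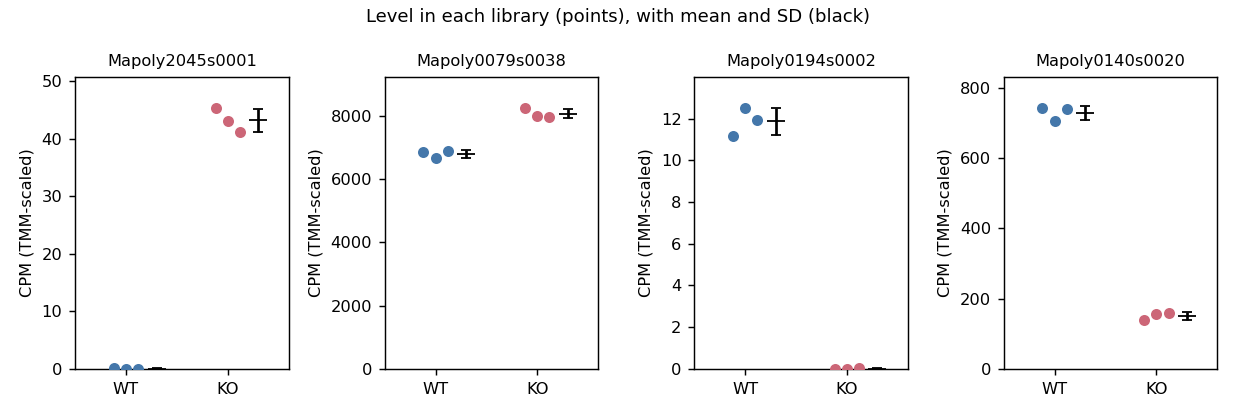
Level in CPM of 4 genes in each WT (blue) and KO (red) library, with the mean and SD of 3 libraries in black. The libraries of the genotypes do not overlap in any panel, which was a condition of the choice, and each axis starts at 0. Mapoly2045s0001 and Mapoly0194s0002 are close to 0 in one genotype, while Mapoly0079s0038 goes from a mean of 6795 CPM to 8068 CPM.

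The strongest changes were mostly between a low level and hardly any reads. Of the 21 genes that rose at least 16-fold, 16 had at most 3 pairs in the 3 WT libraries together. The median level of the 21 in KO was 1.16 CPM, and 3 of them reached 5 CPM there. Of the 17 genes that fell this much, 9 had at most 3 pairs in KO together. The median level of the 17 in WT was 3.02 CPM, and 8 of them reached 5 CPM. Among changes of at least 2-fold, 95 of the 193 genes that rose had at least 1 CPM in WT, and 122 of the 249 that fell still had at least 1 CPM in KO.

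Over all 19287 IDs, also those the filter removed, 8 had at least 3 pairs in each KO library and no pair in WT. The sums of their KO pairs ranged from 17 to 125. The highest of these genes had 45, 37 and 43 pairs in KO, at least 39.2-fold higher than WT if WT held at most 3 pairs over its 3 libraries. Those 3 pairs are about the upper 95% limit for a count of 0 by counting error alone, not a hard bound. Of the 8 IDs, 5 passed the filter. The reverse pattern was found in 3 IDs, and 2 of these had only 17 and 18 pairs in WT. The third was MapolyY_A0055, singled out after its values were seen, with 47, 35 and 33 pairs in WT and 0 in KO. Its level in WT was at least 40.7-fold higher than in KO by the same limit (edgeR's adjusted p = 4.73e-04). These counts depended on the libraries present, though leaving out a library drops a condition, so they could only stay or rise. Without WT replicate 3, 13 IDs were found in KO alone. The IDs found in WT alone were 6 without WT replicate 2, and 6, 7 and 8 without KO replicates 1, 2 and 3.

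Of the 34 Y-chromosome IDs tested, MapolyY_A0055 and MapolyY_B0028 fell (5.88%, near the 6.49% of all genes tested) and 32 did not pass the test. MapolyY_B0028 had 15.3, 12.4 and 14.8 CPM in WT and 9.72, 7.10 and 8.91 CPM in KO (log2 fold change -0.72 ± 0.13, SE, edgeR's adjusted p = 0.0103).

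Genes that changed often stood next to genes that changed in the same direction. Each ID holds a scaffold number and a serial number, and 11447 pairs of tested genes had consecutive serial numbers on a scaffold. In 90 of these pairs both genes rose, in 115 both fell and in 58 the genes went in opposite directions. Of the neighbours of a gene that rose, 16.3% also rose and 5.25% fell, beside 5.38% and 6.49% of all genes tested. Of the neighbours of a gene that fell, 16.6% also fell and 4.18% rose. Among changes of at least 2-fold, 26.7% of the neighbours of a gene that rose did so as well (30 pairs), beside 1.33% of all genes. For genes that fell, the share was 15.9% (26 pairs), beside 1.71%. The 30 pairs include those of the runs on scaffolds 27 and 121 described below. These shares are descriptions with no test. Pairs of IDs changed in the same direction numbered 205 with all libraries. They numbered 79 without KO replicate 2, 91 without WT replicate 2, 106 without KO replicate 3 and 125 without WT replicate 1. The changed genes in these fits numbered 871, 980, 1154 and 1276, beside 1726 with all libraries. Without KO replicate 1 there were 147 pairs and 1354 changed genes, and without WT replicate 3 212 pairs and 1785 changed genes. Fewer changed genes leave fewer pairs, and the shares among neighbours were not computed in these fits. How reads of near-identical or overlapping neighbours were counted is not known from the sources used here, so the values of such neighbours are uncertain.

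The longest runs of consecutive IDs that changed in the same direction had 6 genes, and there was 1 such run on scaffold 27 and 1 on scaffold 83. On scaffold 27 a run of 5 genes ended 1 ID before the run of 6, and after their values were seen these runs were joined across the ID between them, which the filter had removed. The 12 IDs with serial numbers 161 to 172 were all higher in KO. Of these, 11 passed the filter. A run was defined by passing the threshold in the same direction, here and below. That all 11 rose was therefore fixed by the choice, with adjusted p-values of 4.55e-05 to 0.00321 in edgeR's test. Their summed level was 4.66, 7.58 and 11.5 CPM in WT and 82.2, 94.8 and 86.9 CPM in KO. Every KO library lay far above every WT library, and the ratio of the mean sums was 11.1, for genes chosen by this difference. The 10 of them with reads in WT rose by 8.75-fold to 20.1-fold. The ID with serial number 171 had no pair in WT and 15, 23 and 13 pairs in KO. Serial number 166, which the filter removed, had no pair in WT and 22, 4 and 6 pairs in KO.

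The change ended sharply on either side of this stretch. The next tested ID above it, serial number 173, had 653, 434 and 488 pairs in WT and 510, 485 and 451 in KO, and its log2 fold change of -0.21 did not pass the test. The next tested ID below it, serial number 158, had 750, 516 and 613 pairs in WT and 814, 687 and 626 in KO (log2 fold change 0.09, not past the threshold). Serial numbers 159 and 160 had at most 2 pairs in any library. Elsewhere on scaffold 27, 5 genes rose and 6 fell among the 152 tested on it in all. All 11 tested genes of the stretch passed the threshold in each of the 6 fits that left out a library.

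Runs of neighbours that rose were also found on other scaffolds. On scaffold 121, the 5 genes with serial numbers 6 to 10 rose, by 1.70 to 3.26 on the log2 scale. Their summed level was 3.89, 3.75 and 6.52 CPM in WT and 27.7, 37.8 and 31.8 CPM in KO, a ratio of means of 6.87. On scaffold 83, the 6 genes with serial numbers 28 to 33 rose. Most of their summed level came from serial number 28, which rose from a mean of 210 CPM to 544 CPM. The log2 fold changes of the 6 ranged from 0.18 to 4.68.

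The runs of 4 or more genes that fell were on scaffolds 58, 15, 88 and 223. On scaffold 88, the 4 genes with serial numbers 32 to 35 fell together. Their sum was 106, 108 and 111 CPM in WT and 38.8, 37.4 and 37.5 CPM in KO, 2.86 times higher in WT. On scaffold 58, 5 genes fell, and their sum was 35.7 ± 4.4 CPM in WT and 15.2 ± 1.3 CPM in KO (SD, n = 3 libraries each). All genes of the runs on scaffolds 88 and 121 passed the threshold in each fit that left out a library. On scaffold 58, 3 of 5 did so, on scaffold 83, 5 of 6, and on scaffolds 15 and 223, 1 of 4 each. Runs of 3 genes numbered 4 higher and 10 lower, and runs of 2 genes numbered 64 higher and 82 lower.

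**Figure D5:**
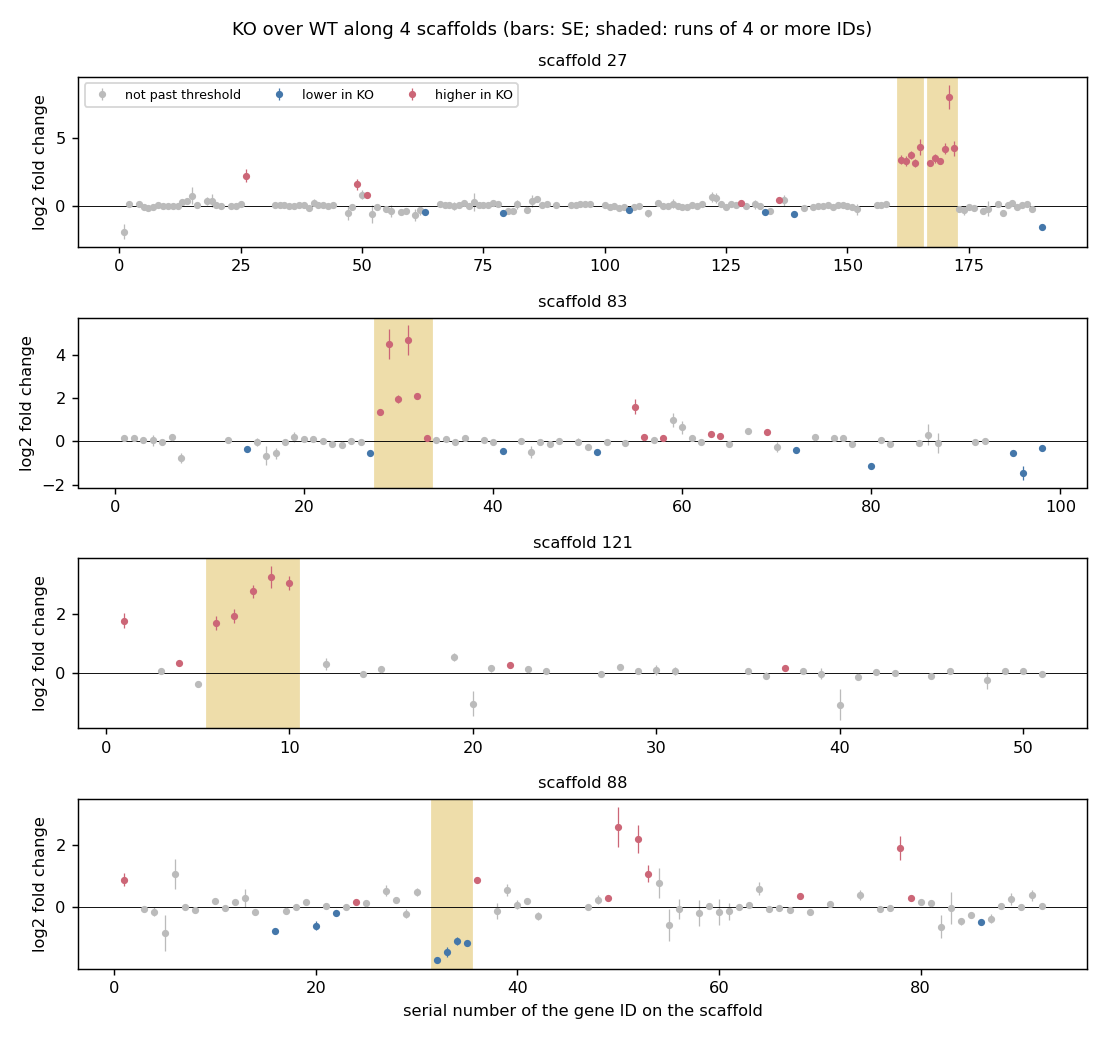
Log2 fold change of KO over WT (points, with SE as bars) against the serial number of each tested gene ID on scaffolds 27, 83, 121 and 88, with higher genes in red, lower genes in blue, other genes in grey and runs of 4 or more neighbours that changed in the same direction shaded. On scaffold 27 the 11 tested genes between serial numbers 161 and 172 stand at 3.13 or higher, while the genes on either side lie near 0.

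The share of changed genes differed between scaffolds. On the 164 scaffolds with at least 20 tested genes, it ranged from 0% to 38.1%, with a median of 10.3%, beside 11.9% of all genes tested. The lowest and the highest share came from scaffolds with only 24 and 21 tested genes. Whether the shares differ more than sampling allows was not tested. IDs that are alone on their scaffold are described after their values were seen, with no test. Of 207 such genes tested, 49 rose and 18 fell, so that 32.4% changed. Over all genes tested, 5.38% rose and 6.49% fell. By at least 2-fold, 25 of the 207 rose and 8 fell, a share of 15.9%. The share at 2-fold over all genes tested was 3.04%, with 1.33% higher and 1.71% lower. Of 125 tested genes on scaffolds with 2 to 5 IDs, 28.8% changed, 20 of them higher and 16 lower. On scaffolds with over 100 IDs, 10.2% of 9167 genes changed, 389 higher and 545 lower.

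The genes alone on their scaffold, changed or not, had a median log2 fold change of 0.12, against a median of 0.0029 for all genes tested. They took 0.586%, 0.595% and 0.612% of the counts in WT and 0.629%, 0.636% and 0.648% in KO, and the genotypes did not overlap. The genes on scaffolds with 2 to 5 IDs had a median log2 fold change of -0.0042. They took 0.293% ± 0.0010 of the counts in WT and 0.283% ± 0.0015 in KO (SD, n = 3 libraries each). Here too the genotypes did not overlap, with KO below WT. Taken singly, 31.5% of all genes tested did not overlap. Sums over the larger scaffold classes were not taken. The median level of the genes alone on their scaffold was 3.95 CPM, below the 21.4 CPM of genes on scaffolds with over 100 IDs.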

How the data were processed

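The values analysed are raw counts per gene, 1 column per sample, as deposited by the authors. The submitters' processing notes list STAR 2.5.1b and featureCounts 1.5. Settings, strand use and genome build were not given in the sources used here, so reads of near-identical or overlapping genes may be split or dropped. All 173583 deposited counts were even, so 1 read pair appears to be counted as 2, and pairs are counts divided by 2. Libraries were matched to columns by name, and 0 columns belonged to other samples.

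The 3 KO and 3 WT libraries were analysed with edgeR 4.0.16 in R 4.3.3: filterByExpr by genotype, TMM factors (0.972 to 1.02), glmQLFit and glmQLFTest with no covariate, and Benjamini-Hochberg adjustment over all 14541 genes (threshold 0.05). The standard error of a log2 fold change is its size divided by the square root of F. It understates the uncertainty for genes with hardly any reads in one genotype. Correlations and principal components used log2(CPM + 0.5). A count of 0 was given an upper limit of 3 pairs, about a 95% limit, which in a library is 0.102 to 0.134 CPM at these depths. This limit and the binomial intervals cover counting error only. Chi-square tests between replicates gave 6.72 to 17.0 per degree of freedom, so no libraries were treated as duplicates. The fit was tested on simulated data.

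Because the IDs matched no name table (18391 rows), the rule names in each direction the largest log2 fold change and the largest CPM difference among changed genes whose mean reached 5 CPM in KO or in WT and whose libraries did not overlap; gene lists by product could not be used. The comparison, the lists and the alternatives were chosen with earlier results of these data known. Stretches of neighbouring IDs and scaffold classes were described after the values were seen. Alternatives were other scalings, filters and tools (DESeq2 1.42.0, voom in limma 3.58.1), a fit with OX, halved counts, a replicate block, a stricter threshold and leaving out each library.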

Additional observations from a re-analysis of the deposited data

How the results depend on the processing

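All 68 fold changes of the 4 genes described by ID, under 17 alternatives, had the direction reported and passed the threshold. The stricter threshold was applied to the reported fit, so its fold changes are the reported values. The 4 genes were chosen for their large changes in these same libraries, so this outcome was likely from the start. Log2 fold changes ranged from 0.22 to 0.26 for Mapoly0079s0038, from -2.30 to -2.20 for Mapoly0140s0020, from 9.07 to 14.2 for Mapoly2045s0001 and from -12.4 to -9.22 for Mapoly0194s0002. The number of changed genes stayed within 1.5 times of 1726 under 3 other scalings, 2 other filters, DESeq2, limma-voom, a fit on all 9 libraries (2096) and halved counts (1729). The share of rises among changed genes was 45.4% with TMM factors, 40.9% with upper-quartile factors and 38.3% with library size alone. The splits by level class and among the 100 most abundant genes under other scalings were chosen after seeing the data. With an adjusted p of at most 0.01, 797 genes changed, 351 higher and 446 lower, with 74 neighbouring pairs in the same direction; a stricter threshold lowers these counts by construction.

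A fit with the replicate number as a block term called 3520 genes, 1740 higher and 1780 lower, of which 1724 were among the 1726, with 554 neighbouring pairs. By the labels the libraries share only a number. Same-numbered libraries' deviations from the genotype means correlated at 0.420, 0.040 and 0.391, over 0.1 in 2 of 3. The deviations within a genotype cancel, so the correlations are not independent of each other. Differently numbered libraries gave -0.417 to 0.029. Each of the 6 libraries correlated best with its own number, WT replicate 2 only by 0.040 against 0.029. That is a hint from the data, not from the design.

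With at least 1 pair in each library, 35 IDs were found in KO alone and 34 in WT alone, and with at least 10 pairs 3 and 1. With 1 library left out in turn, there were 871 to 1785 changed genes, 367 to 766 higher and 504 to 1019 lower, 141 to 205 and 182 to 249 at 2-fold or more, and 79 to 212 neighbouring pairs in the same direction. It gave 9 to 13 IDs in KO alone and 3 to 8 in WT alone, fewer libraries being required to hold reads or lack them, and coefficients of variation of 8.81% to 12.5% in WT and 6.97% to 10.9% in KO. The lowest numbers of changed genes came without KO replicate 2 and WT replicate 2. The highest coefficients of variation, 10.9% in KO and 12.5% in WT, came without these same libraries. Each of these fits had 1 library fewer, and the cause was not tested.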

Other observations

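Levels in the OX libraries are given beside those of WT and KO as values without a test, scaled over all 9 libraries. The summed level of the 11 tested genes on the stretch of scaffold 27 was 2.57, 5.97 and 3.33 CPM in OX, where WT had a mean of 8.02 and KO of 89.2 CPM. Mapoly2045s0001 had 0.0572 ± 0.018 CPM in OX (SD, n = 3 libraries), close to its WT mean of 0.047 CPM. Mapoly0140s0020 had 1222 CPM as its mean in OX, above the WT mean of 739.5 CPM and the KO mean of 153 CPM. Mapoly0079s0038 had 5720, 5570 and 6070 CPM in OX, below each of its WT libraries and each of its KO libraries. Mapoly0194s0002 had 6.87 ± 0.35 CPM in OX (SD, n = 3 libraries), between its WT mean of 12.04 CPM and its KO mean of 0.0118 CPM.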
